A study of Mus musculus with 24 samples.

Results

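The macrophage and myeloid genes described here are 32 genes chosen by symbol from the 45706 genes counted by bulk RNAseq of the mouse main olfactory epithelium (OE). No cutoff on measured values was used, but earlier results of these data were known when the choice was made. The 32 genes fall into 6 groups by role. These are 9 surface markers and receptors of resident macrophages, 3 C1q chains, 4 Fc receptors and ITAM adaptors, 5 lysosomal, pore-forming and oxidase genes of phagocytes, 5 genes of a myeloid transcription factor, integrins and cytokine receptor signaling, and 6 inflammatory sensing genes. All 32 passed the filter on low counts in every comparison.

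The study compared the OE of *WT* and *iRhom2-/-* mice at 5, 8, 10 and 30 weeks of age, with 3 mice per age and genotype and 1 library per mouse. The *iRhom2-/-* mice carried the Rhbdf2 tm1b (KOMP)Wtsi allele, a LacZ reporter allele that is not limited to 1 cell type, so loss of iRhom2 in macrophages and in other cells cannot be told apart, and the strain was a 129Sv and C57BL/6 mix. Mice were untreated. At 8 weeks there were 2 male and 1 female *WT* mice and 3 male *iRhom2-/-* mice, at 10 weeks 2 male mice and 1 female mouse of each genotype, and all mice of 5 and 30 weeks were male. The libraries numbered 7 to 12 of each genotype were taken to be those of the 5- and 30-week mice by elimination, since the labels give the numbers 1 to 6 to the mice of 8 and 10 weeks. Their names show the genotype alone, not the age or the mouse. They were therefore compared as 6 against 6, and the spread within each genotype there holds the difference between those ages. Age group and core reference number cannot be told apart, since each of the 8-week, the 10-week and the 5- or 30-week mice has its own number. The labels do not say what that number stands for.

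Macrophages are resident phagocytes that engulf dying cells and debris, and in the OE they clear sensory neurons that are lost and replaced throughout life. They depend on the CSF1 receptor and the transcription factor PU.1, sense immune complexes through Fc receptors, tag targets with C1q, and detect microbial products through Toll-like receptors and inflammasomes. iRhom2, encoded by *Rhbdf2*, is needed in myeloid cells to mature the protease ADAM17, which releases TNF from the cell surface. In bulk tissue, fewer cells of a type and less RNA per cell cannot be told apart.

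Library totals ranged from 25333822 to 48660394 estimated counts, and levels are given as CPM, counts relative to the library total, after TMM scaling over all 24 libraries. *Rhbdf2* (chromosome 11, 116598165 to 116627019) matched the genotype labels in every library, with 19.4 to 25.1 CPM in the 12 *WT* and 7.21 to 13.4 CPM in the 12 *iRhom2-/-* libraries. Its log2 fold change over all ages was -1.08 ± 0.085 (SE), with an adjusted p of 9.84e-08 in edgeR's quasi-likelihood test. *Omp*, the marker of mature olfactory sensory neurons (OSNs), was present at 3733 to 8381 CPM in all 24 libraries. A pair of libraries stood apart. *WT* mouse 1 of 8 weeks had 1327 CPM of *Jchain*, a plasma cell gene, against 78.4 and 81.0 CPM in the other *WT* mice of that age. In *iRhom2-/-* mouse 2 of 10 weeks, *Bpifb9b*, a gland gene, took 13.6% of all counts, and *Hba-a1*, a haemoglobin gene, was at 1414 CPM. The fitted values at 8 and 10 weeks that moved by over 1.5 times without the mouse concerned are given with and without it.

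Per kilobase of exon, *Lyz2*, which encodes lysozyme, was the highest member at a mean of 154 CPM per kb over the 24 libraries. *Ctss* (cathepsin S) followed at 29.9, *C1qa* at 29.1, *C1qb* at 27.2 and *Tyrobp* at 24 CPM per kb, and the ranges of these 4 overlapped. *Lyz2* held 19.4% to 49.1% of the summed CPM of the members in a library, so sums are given without it. Its close copy *Lyz1* had at most 91 counts in a library, and how reads were split between the copies is uncertain. At the low end, *Nlrp3* (the inflammasome sensor) had 0.562 and *Cd163* (a scavenger receptor for haemoglobin) 0.181 CPM per kb. *Cd163* rested on 11 to 92 counts per library, and the pan-leukocyte gene *Ptprc* (CD45) was at 7.80 to 46.6 CPM.

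PU.1, the product of the member *Spi1*, binds purine-rich sites with the core GAGGAA. These letters, on either strand, were found in the 250 bases before the RefSeq gene start (GRCm38.p6) of 14 of the 25 members with an entry (56%), and in 25.9% of all 27025 genes. The windows of the members called in the comparisons below are shown, 5′ to 3′ on the gene's strand, with each match in capitals as its reverse complement TTCCTC. *Fcgr1* lies on the minus strand at chr3:96293970-96294219, with the match at position -55 from the gene start. *Aif1* lies on the minus strand at chr17:35176053-35176302, with the match at position -7, where GENCODE places an exon of a non-coding *Aif1* transcript. For *Laptm5*, on the plus strand, 30 bases around the match at position -38 are shown, at chr4:130913266-130913295, since an alternative first exon covers most of its window. *Itgax*, on the plus strand at chr7:128129300-128129549, had no match in its window. A match is a description of the letters and not a shown binding site.
Fcgr1: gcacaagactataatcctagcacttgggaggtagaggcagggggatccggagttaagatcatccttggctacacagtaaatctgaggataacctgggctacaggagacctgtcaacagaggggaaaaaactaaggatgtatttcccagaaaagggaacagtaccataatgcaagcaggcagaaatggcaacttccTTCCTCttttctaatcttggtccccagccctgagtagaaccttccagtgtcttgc
Aif1: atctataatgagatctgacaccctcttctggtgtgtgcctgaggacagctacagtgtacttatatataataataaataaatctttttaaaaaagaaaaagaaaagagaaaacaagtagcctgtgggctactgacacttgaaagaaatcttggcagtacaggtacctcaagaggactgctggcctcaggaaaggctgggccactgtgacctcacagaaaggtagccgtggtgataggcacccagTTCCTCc
Laptm5: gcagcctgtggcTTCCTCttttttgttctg
Itgax: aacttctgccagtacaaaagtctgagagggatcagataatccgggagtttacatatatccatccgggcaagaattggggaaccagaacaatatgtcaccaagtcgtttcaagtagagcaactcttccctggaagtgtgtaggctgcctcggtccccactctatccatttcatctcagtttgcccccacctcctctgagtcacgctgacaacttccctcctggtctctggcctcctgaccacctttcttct

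Over all ages, with 12 mice per genotype and the age group as a term, the fitted log2 fold change (*iRhom2-/-* minus *WT*) was below 0 for all 32 members, with a median of -0.32 and a range from -0.70 to -0.041. Among all 20131 genes tested, the median was 0.0017 and 49.5% of genes were below 0. With an adjusted p under 0.1 in edgeR's test, 3 members fell and 0 rose, namely *Fcgr1*, *Aif1* and *Laptm5*, while 2.13% of all genes were called, 0.835% of all genes in that direction. A further 10 members had an unadjusted p under 0.05, so 13 of the 32 were lower at that level, against 5.88% of all genes. Leaving out 1 library changed the count of calls. Without *WT* library 7, or without *iRhom2-/-* mouse 2 or 3 of 8 weeks, it was 0. It was 1 (*Fcgr1*) without *WT* mouse 1 of 8 weeks. When *iRhom2-/-* mouse 2 of 10 weeks was left out, it was 7. Without *WT* mouse 1 of 8 weeks, 31 of the 32 members stayed below 0, with a median of -0.21, and the values of 17 members moved by over 1.5 times.

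**Figure D1:**
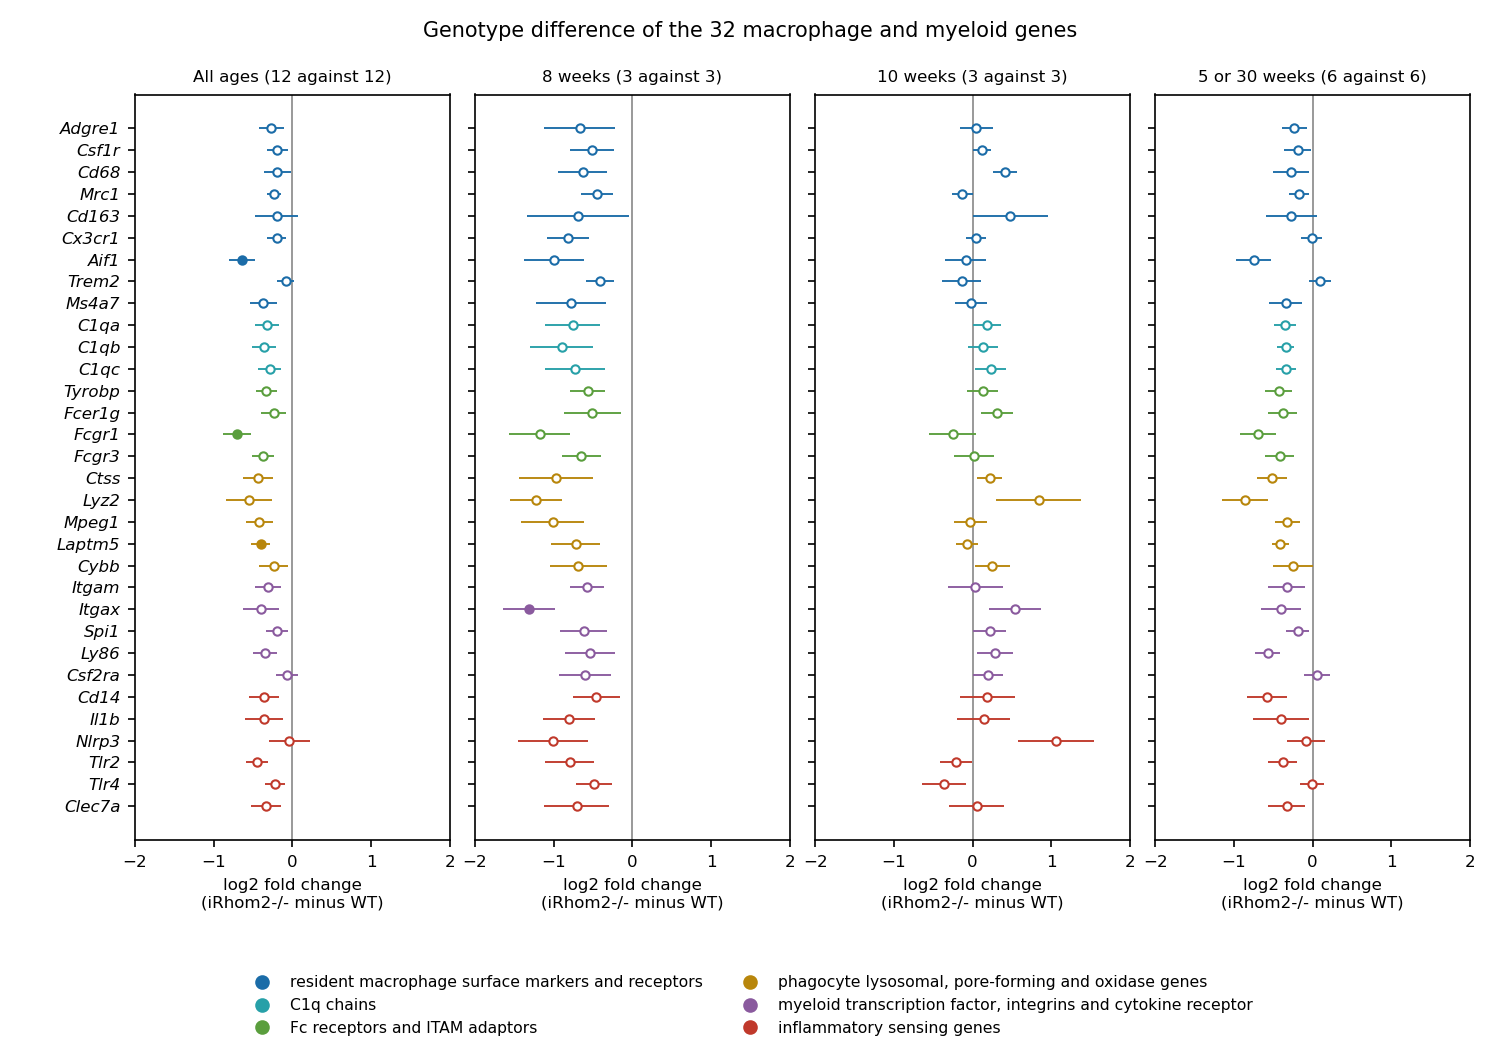
Log2 fold change (x axis, *iRhom2-/-* minus *WT*) of each member (y axis) in the 4 comparisons, coloured by role, with bars of 1 standard error and filled points where the adjusted p was under 0.1. All 32 points lie left of 0 at 8 weeks and over all ages, while 23 of 32 lie right of 0 at 10 weeks.

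Among the Fc receptors and their ITAM adaptors, *Fcgr1* alone was called, and it had the smallest p of all members. *Fcgr1* (chromosome 3, 96282909 to 96293969), the high-affinity receptor for IgG, ranged from 2.26 to 6.88 CPM in *WT* mice with a median of 3.24. In *iRhom2-/-* mice it ranged from 1.22 to 3.23 CPM with a median of 2.33. The ranges overlapped, and its log2 fold change was -0.70 ± 0.18 (SE), with an adjusted p of 0.0575 (edgeR). *Tyrobp* (DAP12), the adaptor that signals for TREM2 and related receptors, had a log2 fold change of -0.33 ± 0.13, and its adjusted p of 0.260 (edgeR) missed the threshold. *Fcgr3*, a low-affinity IgG receptor, was at -0.37 ± 0.14, and *Fcer1g*, the shared Fc receptor gamma chain, at -0.24 ± 0.16, or -0.14 without *WT* mouse 1 of 8 weeks.

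Of the 9 surface markers and receptors of resident macrophages, 1 fell and 8 did not pass the test, with a median of -0.20. The one called was *Aif1* (chromosome 17, 35170991 to 35176068), which encodes the actin-binding protein IBA1 used to stain macrophages and microglia. It ranged from 3.34 to 9.34 CPM in *WT* mice with a median of 5.27, and from 1.94 to 4.93 CPM in *iRhom2-/-* mice with a median of 3.66. The log2 fold change was -0.64 ± 0.17 (SE, adjusted p 0.0700, edgeR), and the call was lost in 9 of the 24 fits that left out 1 library. *Csf1r*, the CSF1 receptor on which macrophages depend, had medians of 48.8 CPM in *WT* and 43.3 CPM in *iRhom2-/-* mice. Its log2 fold change of -0.19 ± 0.13 did not pass the test (adjusted p 0.577, edgeR). *Trem2*, a lipid-sensing receptor, was at -0.088 ± 0.11, the smallest difference of the group. *Adgre1* (F4/80), *Cx3cr1* (the fractalkine receptor), *Mrc1* (the mannose receptor), *Cd163* and *Ms4a7* lay between -0.37 and -0.20, and *Cd68*, a lysosomal glycoprotein, was at -0.19 ± 0.17. Without *WT* mouse 1 of 8 weeks, *Csf1r* was at -0.12, *Trem2* at -0.055, *Adgre1* at -0.11, *Cx3cr1* at -0.085, *Ms4a7* at -0.20 and *Cd68* at -0.10.

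The 3 C1q chains, which form the first component of the classical complement pathway, lay close together at -0.32 ± 0.15 for *C1qa*, -0.36 ± 0.15 for *C1qb* and -0.29 ± 0.15 for *C1qc*. None was called, and the lowest adjusted p was 0.314 (edgeR). The 3 chains were at -0.19, -0.20 and -0.16 without *WT* mouse 1 of 8 weeks. They lie next to each other on chromosome 4, and each is needed for the assembled protein.

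Among the lysosomal, pore-forming and oxidase genes, 1 of 5 fell. *Laptm5* (chromosome 4, 130913125 to 130936141), a lysosomal membrane protein of blood cells, ranged from 33.7 to 71.3 CPM in *WT* mice with a median of 38.3. In *iRhom2-/-* mice it ranged from 23.7 to 43.5 CPM with a median of 32.8. Its log2 fold change was -0.40 ± 0.12 (SE, adjusted p 0.0980, edgeR), and the call was lost in 17 of the 24 fits that left out 1 library. *Lyz2* had the largest standard error of the members at -0.55 ± 0.29, with 102 to 377 CPM in *WT* and 79.1 to 485 CPM in *iRhom2-/-* mice. *Ctss* was at -0.44 ± 0.19, *Mpeg1* (perforin-2, which forms pores in engulfed bacteria) at -0.42 ± 0.17 and *Cybb* (the catalytic subunit of the phagocyte oxidase) at -0.24 ± 0.19. These 3 were at -0.24, -0.26 and -0.081 without *WT* mouse 1 of 8 weeks.

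None of the transcription factor, integrin and cytokine receptor genes was called over all ages. *Spi1* was at -0.19 ± 0.14, *Itgam* (CD11b) at -0.31 ± 0.17, *Itgax* (CD11c) at -0.40 ± 0.23, and *Ly86*, the partner of the Toll-like receptor homolog RP105, at -0.35 ± 0.15. *Csf2ra*, the alpha chain of the GM-CSF receptor, was near 0 at -0.072 ± 0.14. Leaving out *WT* mouse 1 of 8 weeks took *Spi1* to -0.078 and *Csf2ra* to -0.0095.

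Over all ages the median of the inflammatory sensing genes was -0.34, against -0.31 for the 26 other members and -0.25 for the 12 resident macrophage and C1q genes. None of the 6 passed the threshold. *Tlr2*, the receptor for bacterial lipoproteins, came nearest, with medians of 4.79 CPM in *WT* and 3.88 CPM in *iRhom2-/-* mice and a log2 fold change of -0.45 ± 0.14 (adjusted p 0.121, edgeR). *Cd14*, the co-receptor for lipopolysaccharide, was at -0.36 ± 0.19, *Il1b* (interleukin-1 beta) at -0.36 ± 0.24, *Clec7a* (the beta-glucan receptor dectin-1) at -0.33 ± 0.19 and *Tlr4* (the receptor for lipopolysaccharide) at -0.22 ± 0.13. *Nlrp3* had the smallest difference of all members at -0.041 ± 0.26, and turned to 0.0093 when only the mice of 8 and 10 weeks were fitted. Without *WT* mouse 1 of 8 weeks, *Nlrp3* turned to 0.055 and *Clec7a* was at -0.21, and without *iRhom2-/-* mouse 2 of 10 weeks *Nlrp3* was at -0.11.

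**Figure D2:**
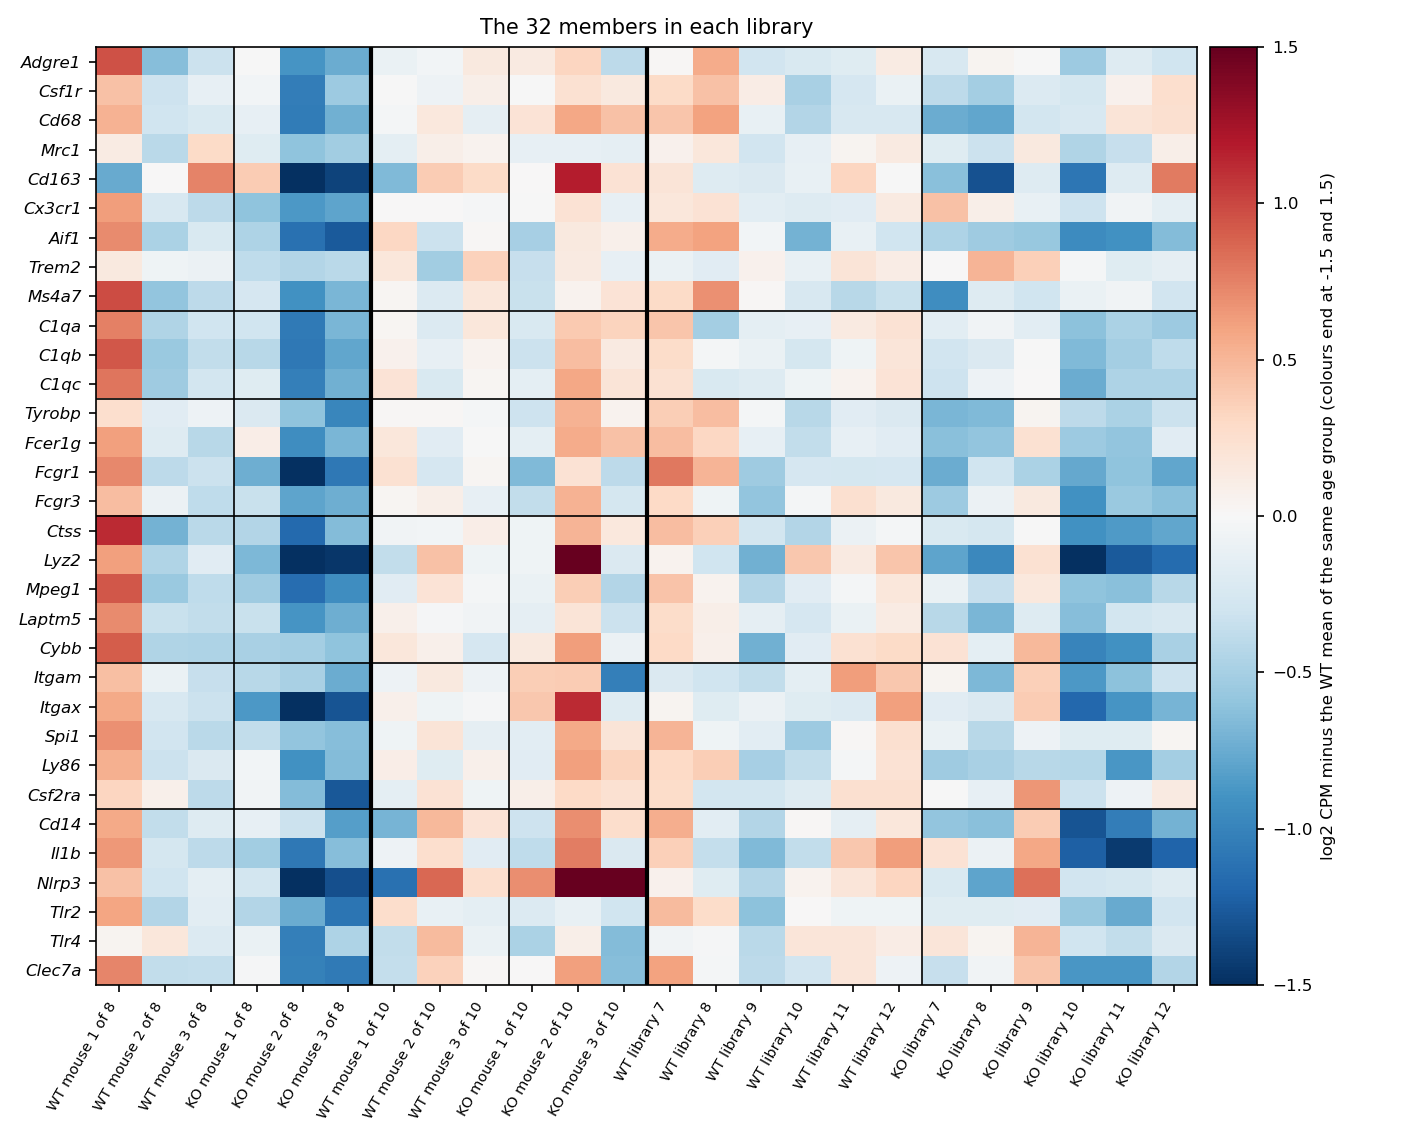
Level of each member (rows, lines between roles) in each library (columns, ages in weeks, KO is *iRhom2-/-*) as log2 CPM minus the mean of the *WT* libraries of the same age group. *WT* mouse 1 of 8 weeks and *iRhom2-/-* mouse 2 of 10 weeks are high for most members, and *iRhom2-/-* mice 2 and 3 of 8 weeks are low for nearly all.

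At 8 weeks all 32 members had a log2 fold change below 0, a median of -0.70 and a range from -1.32 to -0.41. The median of all 19335 genes tested was -0.0013, and 50.2% of them were below 0. By edgeR's test 1 member fell, *Itgax*, while 4.98% of all genes were called and 1.74% were called lower. With an unadjusted p under 0.05, 12 members were lower, against 9.02% of all genes. For 10 members every *iRhom2-/-* mouse was below every *WT* mouse, and this held for 11.8% of all genes. These were *Cx3cr1*, *Itgam*, *Itgax*, *Tyrobp*, *Fcgr1*, *Lyz2*, *Trem2*, *Cybb*, *Il1b* and *Tlr2*. For *Tlr2* the lowest *WT* mouse was at 4.79 CPM and the highest *iRhom2-/-* mouse at 4.78 CPM, so the genotypes nearly met.

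Much of the size at this age came with 1 mouse. *WT* mouse 1 held the highest value of the 6 mice for 29 of the 32 members, and *iRhom2-/-* mouse 2 the lowest for 23 and mouse 3 for 9. Without *WT* mouse 1, all 32 members stayed below 0, with a range from -0.99 to -0.021, but the median moved to -0.33 and 0 were called by edgeR, with 3 at an unadjusted p under 0.05. The values of 23 members moved by over 1.5 times. The call of *Itgax* was lost without any of the 3 *WT* mice and without *iRhom2-/-* mouse 2 or 3. Without *iRhom2-/-* mouse 1, 4 members were called (*Tyrobp*, *Lyz2*, *Itgax* and *Nlrp3*). DESeq2 called 9 members at this age. The shares of all genes reached in the fits without 1 mouse and with DESeq2 are not given here. The sexes were unequal, and with the males alone all 32 members were below 0 with a median of -0.89 and 0 were called.

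*Itgax* (chromosome 7, 128129547 to 128150657), an integrin of dendritic cells and some macrophages, was at 9.91, 5.66 and 5.36 CPM in the *WT* mice 1 to 3 of 8 weeks. It was at 3.68, 1.95 and 2.74 CPM in the *iRhom2-/-* mice 1 to 3. The genotypes did not overlap, and the log2 fold change was -1.32 ± 0.33 (SE, adjusted p 0.0994, edgeR), or -0.98 with an adjusted p of 0.147 (edgeR) without *WT* mouse 1.

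*Lyz2* was at 339, 163 and 198 CPM in the *WT* and at 139, 79.1 and 80.9 CPM in the *iRhom2-/-* mice 1 to 3. No *iRhom2-/-* mouse reached the lowest *WT* mouse, and the log2 fold change was -1.23 ± 0.33 (adjusted p 0.113, edgeR). *Cx3cr1* was at 34.0, 18.6 and 16.8 CPM against 14.5, 12.1 and 12.7 CPM, also without overlap, at -0.82 ± 0.27, or -0.43 without *WT* mouse 1. *Fcgr1* was at 5.95, 2.74 and 2.88 CPM against 2.17, 1.22 and 1.72 CPM, at -1.18 ± 0.39 (adjusted p 0.161, edgeR), or -0.72 without *WT* mouse 1.

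The 6 inflammatory sensing genes had a median of -0.75 at 8 weeks, against -0.69 over the 26 other members. These medians were -0.42 and -0.32 without *WT* mouse 1. *Nlrp3* was at 3.30, 1.98 and 2.19 CPM in the *WT* and at 2.01, 0.713 and 0.972 CPM in the *iRhom2-/-* mice, so 1 *iRhom2-/-* mouse fell within the *WT* range, and the log2 fold change was -1.01 ± 0.44. *Il1b* was at 6.17, 3.27 and 3.00 CPM against 2.73, 1.87 and 2.53 CPM, at -0.81 ± 0.33, or -0.40 without *WT* mouse 1. *Csf1r* was at 74.5, 44.4 and 50.7 CPM against 53.5, 26.9 and 37.8 CPM, where the genotypes overlapped, at -0.52 ± 0.28 (adjusted p 0.346, edgeR), or -0.27 without *WT* mouse 1.

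**Figure D3:**
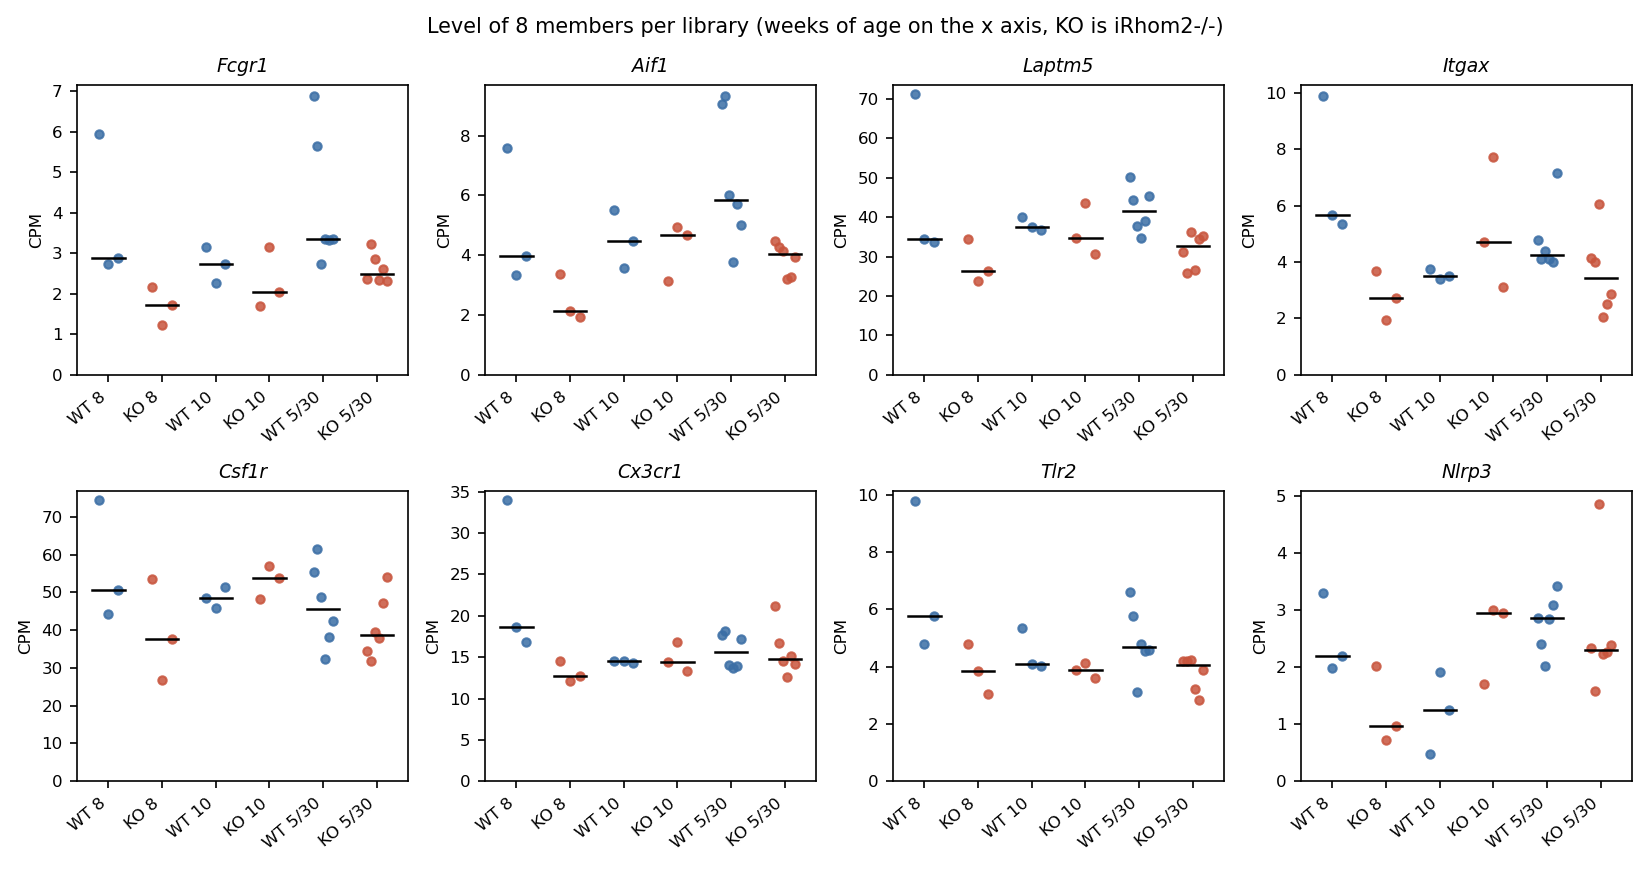
CPM (y axis) of 8 members in each library by genotype and age in weeks (x axis, KO is *iRhom2-/-*). Points are libraries and lines are medians. *Itgax*, *Cx3cr1*, *Tlr2* and *Fcgr1* do not overlap between genotypes at 8 weeks, though *Tlr2* only just (4.79 against 4.78 CPM). *Nlrp3* is higher at the median in the *iRhom2-/-* mice of 10 weeks.

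At 10 weeks 23 members had a log2 fold change above 0 and 9 below, with a median of 0.13, against 0.0068 over all 18764 genes tested, of which 48.6% were below 0. None was called by edgeR or by DESeq2, and 0.197% of all genes were called by edgeR. A single member, *Cd68*, had an unadjusted p under 0.05, against 7.79% of all genes. It was at 10.5, 11.9 and 9.76 CPM in the *WT* mice 1 to 3 and at 12.3, 16.0 and 14.5 CPM in the *iRhom2-/-* mice. These did not overlap, and the log2 fold change was 0.41 ± 0.15 (adjusted p 0.580, edgeR). *Cd68* was the only member with every *iRhom2-/-* mouse above every *WT* mouse, as were 6.77% of all genes, and no member had every *iRhom2-/-* mouse below, as 6.57% of all genes had.

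The direction at 10 weeks rested on 1 mouse. *iRhom2-/-* mouse 2 held the highest value of the 6 mice for 25 members, and without it the median was -0.09, with 19 members below 0 and the values of 27 moved by over 1.5 times or turned. *Lyz2* was at 102, 179 and 126 CPM in the *WT* mice and at 126, 485 and 114 CPM in the *iRhom2-/-* mice, at 0.84 ± 0.54 with all and -0.19 without that mouse. *Nlrp3* was at 0.484, 1.91 and 1.25 CPM against 1.70, 2.99 and 2.95 CPM, at 1.06 ± 0.48 (adjusted p 0.671, edgeR), the largest difference of the members at this age. *Itgax* was at 3.75, 3.40 and 3.51 CPM against 4.70, 7.74 and 3.11 CPM, at 0.54 ± 0.33 with all and 0.13 without *iRhom2-/-* mouse 2. *Tlr4* and *Tlr2* lay below 0 at -0.36 ± 0.28 and -0.21 ± 0.20, and at -0.61 and -0.27 without that mouse.

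At 5 or 30 weeks, with 6 libraries per genotype, 30 members had a log2 fold change below 0 and 2 (*Csf2ra* and *Trem2*) above. The median was -0.34, against -0.0015 over all 18481 genes tested, of which 50.3% were below 0. None was called by edgeR, where 1.07% of all genes were, and 12 had an unadjusted p under 0.05, all lower, against 6.80% of all genes. DESeq2 called 4, namely *Aif1*, *Fcgr1*, *Laptm5* and *Ly86*, and its share over all genes is not given here. For no member were all *iRhom2-/-* libraries below all *WT* libraries, as they were for 0.644% of all genes.

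*Laptm5* had the smallest p in these libraries, with 34.8, 41.6 and 50.1 CPM as lowest, median and highest in *WT* and 25.8, 32.8 and 36.3 CPM in *iRhom2-/-* mice, at -0.41 ± 0.11 (adjusted p 0.134, edgeR). The ranges met only at the lowest *WT* values. *Ly86* had 4.49, 6.79 and 8.17 CPM against 3.45, 4.47 and 4.72 CPM, at -0.57 ± 0.16 (adjusted p 0.161, edgeR). *Aif1* had 3.76, 5.85 and 9.34 CPM against 3.21, 4.04 and 4.47 CPM, at -0.75 ± 0.22 (adjusted p 0.161, edgeR).

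*Lyz2* had 172, 302 and 377 CPM against 87.8, 135 and 329.7 CPM, at -0.86 ± 0.29. The 329.7 CPM were those of *iRhom2-/-* library 9, and the other 5 *iRhom2-/-* libraries stayed at or under 163 CPM. All 3 C1q chains were at about the same difference, from -0.35 to -0.34. *Tlr4* at -0.010 ± 0.15, *Cx3cr1* at -0.011 ± 0.13 and *Nlrp3* at -0.088 ± 0.24 lay near 0. *Cd14*, by contrast, was at -0.58 ± 0.25, with 7.98, 10.4 and 15.8 CPM in *WT* and 4.40, 6.80 and 14.0 CPM in *iRhom2-/-* mice.

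**Figure D4:**
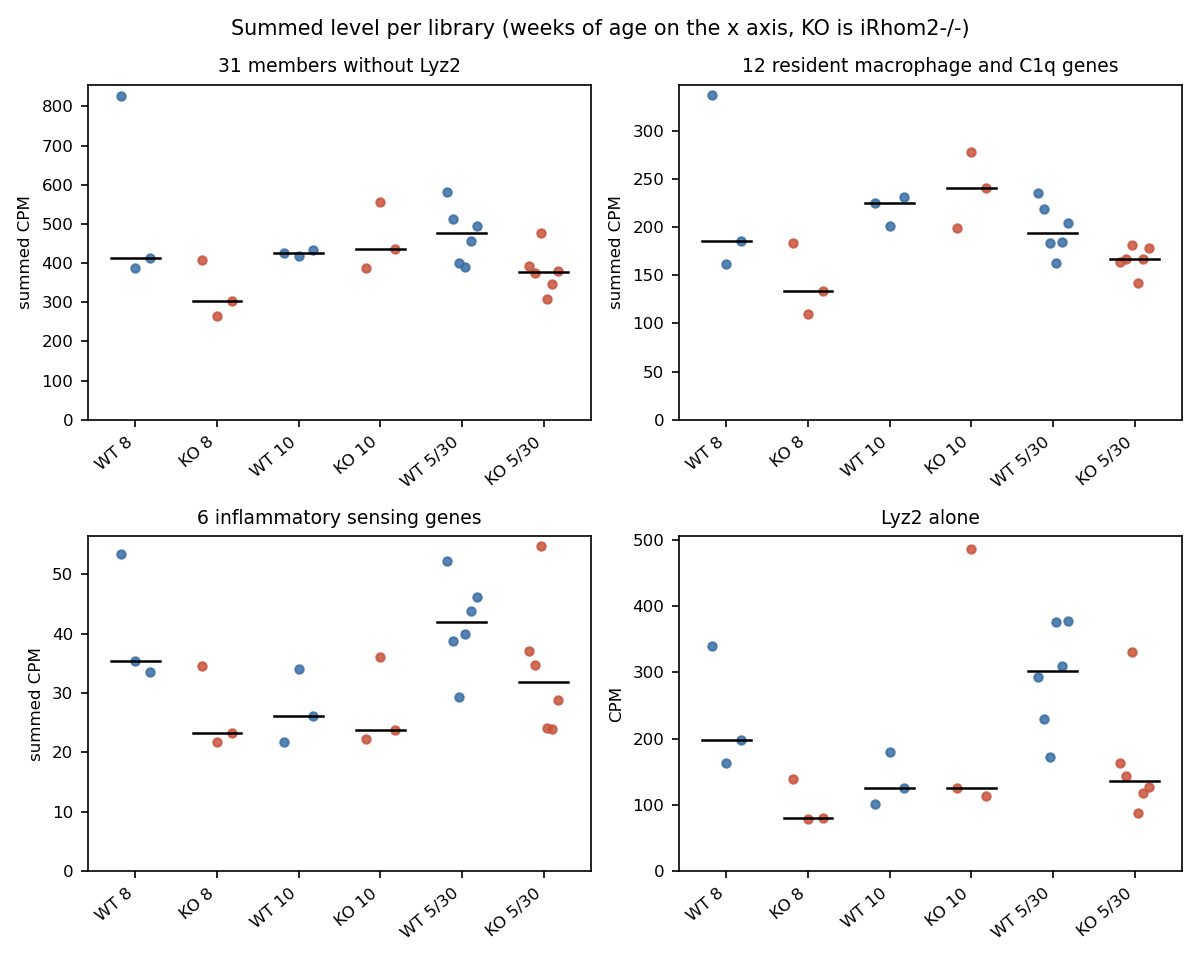
Summed CPM (y axis, from 0) of the 31 members without *Lyz2*, the 12 resident macrophage and C1q genes and the 6 inflammatory sensing genes, and the CPM of *Lyz2*, in each library by genotype and age in weeks (KO is *iRhom2-/-*). Points are libraries and lines are medians. The resident sum is lower at the median in *iRhom2-/-* mice at 8 and at 5 or 30 weeks and higher at 10 weeks.

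Summed without *Lyz2*, the members took 387, 413 and 828 CPM in the *WT* and 265, 303 and 409 CPM in the *iRhom2-/-* mice of 8 weeks, from lowest to highest. At 10 weeks the sums were 418, 426 and 433 CPM against 388, 436 and 557 CPM, which overlapped fully. At 5 or 30 weeks the lowest, median and highest sums were 389, 476 and 580 CPM against 309, 377 and 478 CPM.

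Tissue macrophage and inflammatory genes were then set side by side within libraries. The summed CPM of the 6 inflammatory sensing genes per CPM of the 12 resident macrophage and C1q genes had medians of 0.181 in *WT* and 0.188 in *iRhom2-/-* mice at 8 weeks. The medians were 0.114 and 0.112 at 10 weeks and 0.223 and 0.189 at 5 or 30 weeks, and the ranges of the genotypes overlapped at each age. The highest ratio of any library was 0.301, in the *iRhom2-/-* group of 5 or 30 weeks. Per CPM of *Ptprc*, the members without *Lyz2* took a median of 19.3 CPM in *WT* and 25.3 CPM in *iRhom2-/-* mice at 8 weeks, without overlap. At 10 weeks these medians were 51.8 and 54.4, and at 5 or 30 weeks 25.7 and 29.7, with overlap.

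Whether the genotype difference itself changed with age was tested with an interaction term over all 24 mice. No member was called by edgeR, where 0.0482% of 20763 genes were, and DESeq2 called *Itgax* alone, with an adjusted p of 0.0848. An unadjusted p under 0.05 was reached by 5 members (*Itgax*, *Cx3cr1*, *Nlrp3*, *Lyz2* and *Ly86*), against 12.7% of all genes. In the test of 8 against 10 weeks alone, 0 were called by edgeR, where 0.0771% of all genes were, and 13 had an unadjusted p under 0.05, against 11% of all genes. The opposite directions at 8 and 10 weeks were thus not called as different for any member by edgeR's test.

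Other genes around the macrophage were counted in lists. Of the 10 genes of the iRhom2 and ADAM17 pathway, *Rhbdf2* fell in all comparisons, and none of the others tested passed the threshold in any. *Adam17* had medians of 31.3 CPM in *WT* and 31.1 CPM in *iRhom2-/-* mice, at -0.084 ± 0.063 over all ages. At 8 weeks it was at 46, 36.1 and 34.6 CPM in *WT* and at 31.8, 27.5 and 32 CPM in *iRhom2-/-* mice. These did not overlap, as for 11.8% of all genes, and the log2 fold change was -0.36 ± 0.13 (adjusted p 0.189, edgeR). It was -0.044 ± 0.12 at 10 weeks and 0.027 ± 0.072 at 5 or 30 weeks. *Tnf*, the cytokine that ADAM17 releases, was low, with 3 to 71 counts per *WT* and 0 to 28 counts per *iRhom2-/-* library. At 8 weeks it was at 1.56, 0.621 and 0.463 CPM in *WT* and at 0.103, 0 and 0.339 CPM in *iRhom2-/-* mice, without overlap. At 10 weeks, where it did not pass the filter, it was at 0.194, 0.286 and 0.0892 CPM in *WT* and at 0.506, 0.710 and 0.186 CPM in *iRhom2-/-* mice, higher at the median and overlapping. Its log2 fold change was 0.13 ± 0.38 at 5 or 30 weeks and -0.23 ± 0.49 over all ages, or -0.022 when *WT* mouse 1 of 8 weeks was left out. Leaving out *iRhom2-/-* mouse 2 of 10 weeks instead gave -0.38. The test of 8 against 10 weeks gave a difference of 3.83 ± 1.1 with an unadjusted p of 0.00258 and an adjusted p of 0.235 (edgeR), which missed the threshold. A count of 0 allows up to 3 counts, or 0.0629 CPM, in that library, and this covers counting error only.

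Of 18 further inflammatory genes, 15 were tested over all ages, 13 were below 0 with a median of -0.23, or -0.12 without *WT* mouse 1 of 8 weeks, and none was called. At 8 weeks, where 4.98% of all genes were called in either direction, 1 of 14 rose, *Ptgs2* (cyclooxygenase-2). It went from 2.33, 1.86 and 1.78 CPM in *WT* to 3.75, 3.82 and 4.59 CPM in *iRhom2-/-* mice, at 1.02 ± 0.21 (adjusted p 0.0693, edgeR). The call was lost in 4 of the 6 fits that left out 1 mouse. Of 18 further tissue macrophage genes, 16 were tested, with a median of -0.038 over all ages, 10 below and 6 above 0 and none called. At 8 weeks 1 of 15 rose, against the same 4.98% of all genes called. This was *Lgmn* (the lysosomal protease legumain), at 0.30 ± 0.074 (adjusted p 0.0951, edgeR), a call lost in 5 of the 6 fits. The 32 members were thus lower at the median over all ages than these further genes, and this difference was not tested. *Cbr2* of this list was also listed as a marker of sustentacular cells, the support cells of the OE. Which cells the transcripts of the further genes came from was not tested.

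Of 7 monocyte genes 0 were called over all ages, where 2.13% of all genes were. At 8 weeks, where 1.74% of all genes were called lower, 1 of the 7 fell. This was *Itga4*, an integrin subunit, at -0.52 ± 0.10 (adjusted p 0.0629, edgeR), a call lost in 3 of the 6 fits. In the dendritic cell list, *Zbtb46*, a transcription factor of classical dendritic cells and endothelium, rose over all ages, against the direction of the other genes. It ranged from 18 to 22.8 CPM in *WT* and from 21.5 to 30.2 CPM in *iRhom2-/-* mice, at 0.34 ± 0.044 (adjusted p 1.13e-04, edgeR), while 8 of the 9 genes of the list were below 0 with a list median of -0.51. *Ciita*, the activator of MHC class II genes, fell at -1.07 ± 0.31 (adjusted p 0.0951, edgeR), and it was at 21.3 CPM in *WT* mouse 1 of 8 weeks against 3.54 and 5.8 CPM in the other *WT* mice of that age. Without that mouse it was at -0.78 and not called, and the call was lost in 16 of the 24 fits that left out 1 library. The other 4 MHC class II genes were not called. A list of 6 cytokine and chemokine ligands had a median of -0.076 and none was called. These were *Csf1* and *Il34*, which bind *Csf1r*, *Csf2*, *Csf3*, the fractalkine gene *Cx3cl1* and *Tgfb1*.

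Markers of other cells were read beside the members. All 5 pan-leukocyte genes were below 0 over all ages with a median of -0.49, and all 12 lymphocyte genes with a median of -0.83, which was -1.69 at 8 weeks, 0.057 at 10 weeks and -1.09 at 5 or 30 weeks. Without *WT* mouse 1 the lymphocyte median at 8 weeks was -0.67 with 11 of 12 genes below 0, and without *iRhom2-/-* mouse 2 that at 10 weeks was -0.45. The lymphocyte genes *Cd8a* and *Cd3d* fell at 8 weeks and *Cd79b* at 5 or 30 weeks, by edgeR's test. By that test 1.74% of all genes were called lower at 8 weeks, and 1.07% were called in either direction at 5 or 30 weeks. The calls of *Cd8a* and *Cd3d* were each lost in 5 of the 6 fits that left out 1 mouse. For *Cd3d* these included the fit without *WT* mouse 1. The call of *Cd79b* was lost in 10 of the 12 fits that left out 1 library. The neutrophil list was split at 8 weeks, with a median of -0.034. *Csf3r* (-0.75) and *Cxcr2* (-0.72) lay below 0 there, and *Mpo* (0.73) and *Elane* (0.61) above. Without *WT* mouse 1 its median was -0.087, with 6 genes below and 5 above 0. The neutrophil median was 0.89 at 10 weeks and -0.23 at 5 or 30 weeks. The erythrocyte list had medians of -0.49, 1.16 and -0.30 at these ages. Its value at 10 weeks rested on *iRhom2-/-* mouse 2, which had the highest *Hba-a1* of all libraries, and without that mouse the median was -0.86 with all 5 genes below 0. Mature OSN markers went the other way from the members at 8 weeks, with a median of 0.51 and 4 of 10 called higher (2 without *WT* mouse 1). Of all genes, 4.98% were called at that age in either direction. The median of the OSN markers was -0.16 at 10 weeks (-0.088 without *iRhom2-/-* mouse 2) and 0.046 at 5 or 30 weeks. The part of these cells, of the share of OSN transcripts and of the libraries that stood apart in the differences of the members was not tested.

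**Figure D5:**
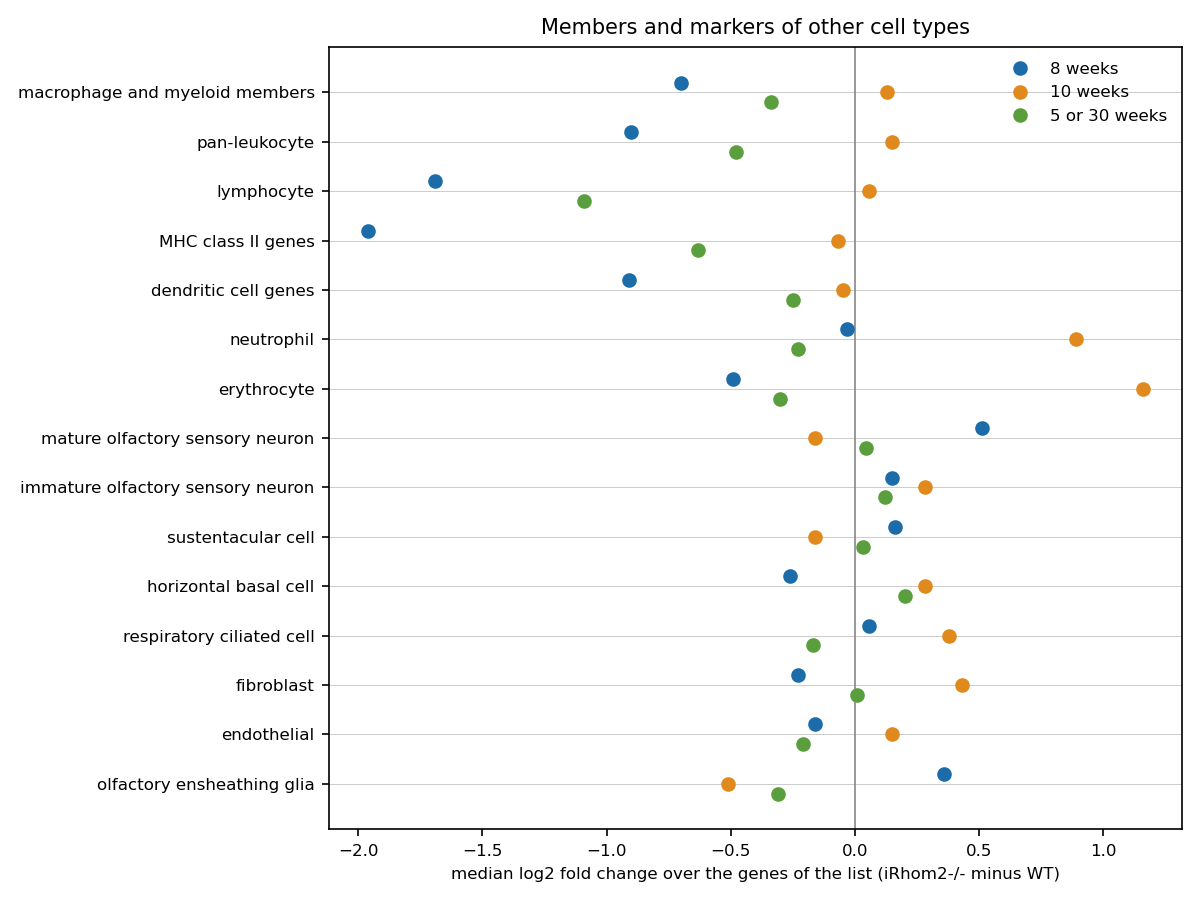
Median log2 fold change (x axis, *iRhom2-/-* minus *WT*) over the genes of each list (y axis) at 8, 10 and 5 or 30 weeks. The members, the pan-leukocyte and the lymphocyte lists lie left of 0 at 8 and at 5 or 30 weeks and right of 0 at 10 weeks. The mature OSN list lies on the other side at each age, but only narrowly (0.046) at 5 or 30 weeks. Without *iRhom2-/-* mouse 2 (not drawn), the 3 lists turn to the left at 10 weeks. The mature OSN list (-0.088) then lies on the same side as the members (-0.09).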

How the data were processed

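RNA of the whole OE was isolated, selected for poly A and made into directional libraries. Per the study's methods, the authors ran nf-core 3.10.1, aligned reads with STAR to GRCm38 and used RSEM for quantification. The values the authors deposited are expected counts, written as whole numbers and not normalized. It also holds the authors' own fold changes, statistics, p-values and FDR, which were not used. The columns of 12 libraries matched 1 mouse each, and the other 12, 6 per genotype, were assigned by elimination to the 5- and 30-week mice as a group.

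The tests used edgeR 4.0.16 under R 4.3.3, with filterByExpr, TMM scaling, the quasi-likelihood test and a Benjamini-Hochberg adjusted p under 0.1 over every gene tested. Age group was a term over all mice. CPM are TMM-scaled. Fold changes are fitted, and per-mouse log2 values used a prior count of 2. Each standard error (SE) was derived from the test, as the absolute log2 fold change divided by the square root of the F statistic. Lists of genes were described by counts and medians. Members and lists were chosen with earlier results of these data known. Values in full were given for the highest member of each role, the members with the 2 smallest p in each comparison and interaction, and *Il1b*, *Nlrp3*, *Tlr2*, *Tlr4*, *Cd14* and *Csf1r*. Other members (*Cx3cr1* among them) were named after their values were seen. Non-members named by the rule were *Rhbdf2*, *Adam17*, *Tnf*, *Ptprc* and genes called in the pathway lists.

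Alternatives were DESeq2 1.42.0, RLE scaling, other filters, the likelihood ratio test, shared spread, male mice alone, no age term, the replicate block and each library left out. The 42 pairs of libraries within groups differed by more than counting error, the lowest ratio of chi-square to degrees of freedom being 12.8. On simulated counts with 200 genes changed 2-fold, the test found 166 over all ages, 116 at 8 weeks, 112 at 10 weeks and 145 at 5 or 30 weeks. It also called 22, 17, 14 and 11 unchanged genes, in the same order. No simulated library was made to stand apart.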

Additional observations from a re-analysis of the deposited data

Results flagged for a closer look

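In the groups of 6 libraries, 7 values lay far from the rest of their group by Dixon's test, among 66 tests made. The 5% that chance alone flags holds for groups of like libraries, while each group here mixes mice of 5 and 30 weeks. The count of 7 can thus not be set against that share. In the *iRhom2-/-* libraries of 5 or 30 weeks, library 9 was highest for *Lyz2* at 329.7 CPM (others 87.8 to 163), for *Cd14* at 14 CPM (others 4.40 to 7.18) and for *Nlrp3* at 4.86 CPM (others 1.58 to 2.39). Library 12 of that group was highest for *Cd163* at 2.29 CPM (others 0.538 to 1.17). Library 11 was lowest for *Ly86* at 3.45 CPM (others 4.36 to 4.72), and library 7 was lowest for *Ms4a7* at 2.89 CPM (others 4.48 to 5.31). Of the *WT* libraries, library 12 was highest for *Itgax* at 7.15 CPM (others 4.02 to 4.78). The groups of 3 mice were too small to be tested in this way.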

How the results depend on the processing

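The count of members called over all ages, 3, ranged from 0 to 7 when 1 library was left out. It was 1 with male mice alone, and 0 without the age term, with the mice of 8 and 10 weeks alone, and at a threshold of 0.05. At 8 weeks, where 1 was called, the count ranged from 0 to 4 when 1 mouse was left out. It was 0 with RLE size factors, with males alone and at a threshold of 0.05, 2 with no filter, with the likelihood ratio test and with the spread shared over all mice, 9 with DESeq2 and 14 with the replicate block. At 5 or 30 weeks the count of 0 became 4 with DESeq2, 1 with the likelihood ratio test and 0 to 2 when 1 library was left out. The interaction count of 0 became 1 with DESeq2. Shares over all genes are given for the main edgeR fits alone, so the counts of these alternatives cannot be set against them. The cause of these differences was not tested.

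Whether the same replicate number paired the mice could not be decided with 3 mice per group. For equal numbers, the correlations of their deviations from the group means were 0.129, 0.046 and 0.003 at 8 weeks. They were 0.009, 0.236 and 0.131 at 10 weeks. For unequal numbers the correlations ran from -0.151 to 0.12 at 8 weeks and from -0.25 to 0.151 at 10 weeks. With the replicate block, 3 members were called over all ages and 0 at 10 weeks.

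Some directions turned. Leaving out 1 mouse at 10 weeks took the median of the members from -0.09 to 0.26, *Tyrobp* from -0.12 to 0.29, *Lyz2* from -0.19 to 1.15, *Aif1* from -0.23 to 0.077, *Laptm5* from -0.24 to 0.027, *Il1b* from -0.31 to 0.33 and *Cd14* from -0.10 to 0.45. *Laptm5* was at 0.0025 at 10 weeks with males alone. *Nlrp3* ranged from -0.18 to 0.075 over all ages, with 0.0093 for the mice of 8 and 10 weeks alone, and from -0.36 to 0.022 at 5 or 30 weeks. *Tlr4* ranged from -0.13 to 0.054 at 5 or 30 weeks. The ratio of the median summed CPM at 10 weeks, 0.984, was 1.02 without *Lyz2*. The alternatives without *Lyz2* and without both libraries that stood apart (4 members called over all ages, median -0.28) were chosen after seeing the data. Only 2-fold changes were simulated for the genotype comparisons, so the share of smaller differences that these depths and group sizes could detect was not tested.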
